A study of Mus musculus with 7 samples.

Results

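The genes described here are 69 axon guidance ligands and receptors of the mouse, measured by RNA sequencing in neural crest-derived cells of the small bowel and of subcutaneous fat. They were chosen by gene symbol from a table of 27179 Entrez genes, not by measured values, though earlier results of these data were known. They are 20 semaphorins, 9 plexins, 2 neuropilins, 3 Slits and 4 Robo receptors. The others are 4 netrins, 5 netrin receptors (Dcc and the Unc5 genes), 8 ephrins and 14 Eph receptors. All groups came from Wnt1-tdT mice, which carry a Cre transgene driven by Wnt1 and an R26R-tdT reporter, so that neural crest cells and their descendants turn red with tdTomato and can be collected by fluorescence sorting. There were 7 groups with 1 library each, made from about 50000 cells pooled from 3 mice aged 1 month, 2 female and 1 male. The adipose groups were neurospheres (10 days as mixed spheroids, then a sort and 10 days as purified cells) and primary cells sorted straight from the posterior subcutaneous fat pads. The bowel groups came from the muscle layer with its myenteric plexus. They were M2 neurospheres, grown like the adipose ones; M1 neurospheres, sorted first and then grown for 10 days; tdTomato-positive and tdTomato-negative cells sorted from mixed spheroids after 10 days; and primary cells. The culture medium held heparin and the growth factors EGF and basic FGF, so that the cultured cells differ from the primary cells in medium as well as in time.

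Guidance ligands attract or repel growing axons and migrating cells. Semaphorins act through plexins, and the secreted class 3 members mostly need a neuropilin as co-receptor. Slits act through Robo receptors, netrins through Dcc and the Unc5 family, and ephrins through Eph receptors, where contact between cells can signal into both of them. In the gut, neural crest cells colonise the bowel wall and form the enteric ganglia, and netrins and semaphorins are among the cues known from that process. In peripheral nerves and fat, neural crest gives rise to Schwann cells, which accompany axons.

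Library totals ran from 51885106 to 65301500 reads, and between 12401 and 14690 genes reached 1 CPM (a read count scaled to the library total). Each group has 1 library, so differences could not be checked against replicates, and every interval covers counting error alone. The labels were checked against glial genes. Sox10, the transcription factor of neural crest and glia, had between 98.0 and 899.6 CPM in the 6 tdTomato-positive libraries, against 5.23 CPM in tdTomato-negative spheroid cells. Adipose neurospheres had 632 CPM of Sox10 but 1.12 CPM of Gpr37l1 and 1.35 CPM of Gfap, which are both glial genes. Primary cells also held RNA of other cells: 6 of 6 acinar genes of the pancreas summed to 39335 CPM and 7 of 7 smooth muscle genes to 24482 CPM in bowel primary cells, against 2.33 CPM and 303 CPM in adipose primary cells. In a bulk library, fewer cells of a type and less RNA per cell cannot be told apart.

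Of the 69 genes, 67 reached 1 CPM in at least 1 library and 44 reached it in all 7. Robo3 and Epha10 stayed under 1 CPM everywhere. A gene was called higher or lower between a pair of libraries if it had at least 1 CPM in either of them, differed by 4-fold or more after scaling (TMM, trimmed mean of M-values) and had a 95% counting interval wholly beyond 2-fold. By that rule 55 genes were called in at least 1 of 9 comparisons and 14 in none. The share of all genes called in at least 1 comparison was not computed, so these counts have no background. Nrp1, the co-receptor of Sema3a, had between 100.3 and 332 CPM over the 7 libraries, and Sema3c, a secreted semaphorin, had between 101 and 239 CPM. After TMM scaling these were the narrowest ranges on the log2 scale, 1.098 for Sema3c and 1.637 for Nrp1, with Sema6c close at 1.640. Neither Nrp1 nor Sema3c was called in any comparison. Sema4a, a transmembrane semaphorin, ranged widely, with 0.276 CPM in adipose neurospheres and 108 CPM in adipose primary cells as its extremes.

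**Figure D1:**
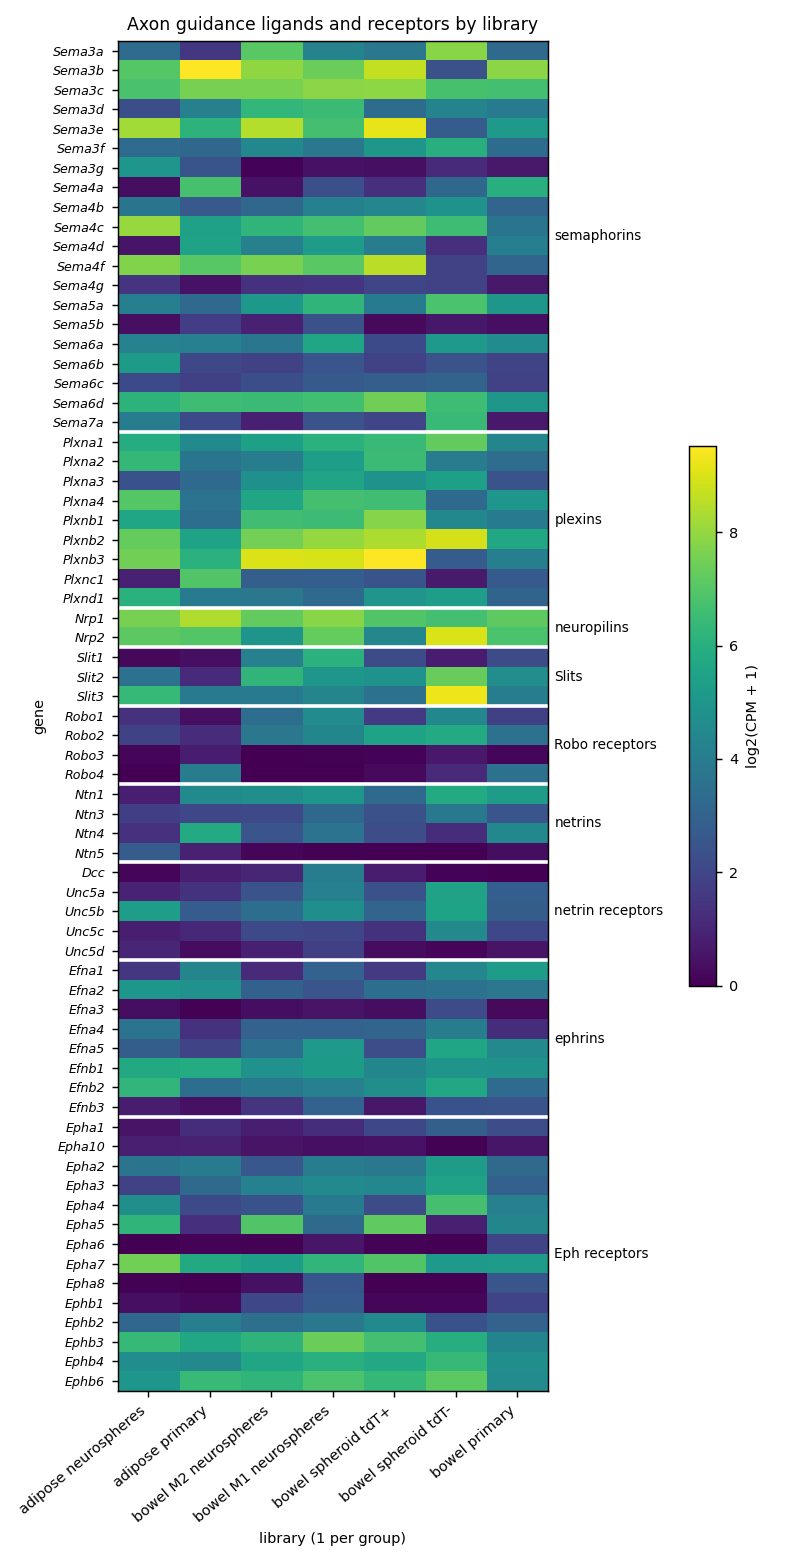
Heat map of log2(CPM + 1) for the 69 guidance genes (rows, by family) in the 7 libraries (columns, 1 library per group). Plxnb3, Sema4f and Sema3e are bright (high) in the tdTomato-positive spheroid column and dark (low) in the tdTomato-negative one, while Slit3 and Nrp2 show the opposite.

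Levels of different genes were compared per length, as CPM divided by the exon length in kb. On that scale Plxnb3, a plexin of class B, had the highest value of the 69 genes in tdTomato-positive spheroid cells (113), M2 neurospheres (79.5) and M1 neurospheres (76.5). Sema3b, a secreted semaphorin, had the highest value in adipose primary cells (154) and bowel primary cells (48.3). Adipose neurospheres were led by Sema4c, a transmembrane semaphorin that binds Plxnb2, at 58.4. In tdTomato-negative spheroid cells Slit3 led at 103, followed by Plxnb2 at 61.6 and Nrp2 at 43.0. Counted by where each gene had its highest scaled level, 29 of the 67 genes (43.3%) peaked in tdTomato-negative spheroid cells, against 17.7% of all genes at 1 CPM in a library. Among single libraries, tdTomato-negative spheroid cells thus held the highest level for the most of these genes. M2 neurospheres held it for 0 of 67, against 11.2% of all genes. The neural crest-derived peaks were split over several libraries. Adipose neurospheres, M1 neurospheres and tdTomato-positive spheroid cells had 9 genes each (13.4%), against 15.2%, 9.07% and 7.02% of all genes. Adipose primary cells had 8 (11.9%, against 20.4% of all genes) and bowel primary cells 3 (4.48%, against 19.4%). Apart from the tdTomato-negative library, all libraries were of neural crest-derived cells, and the effect of that on this count was not tested.

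The first comparison asked how the neural crest-derived cells of a bowel spheroid differ from the other cells of the same spheroids. Of 60 guidance genes measured, 12 were higher and 20 were lower in tdTomato-positive than in tdTomato-negative spheroid cells, or 53.3%, where 19.1% of all 13951 genes measured were called (6.64% higher and 12.5% lower). The median log2 ratio was -1.02 over the guidance genes and 0.01 over all genes measured. The calls differed in direction between families. Plexins were called higher in 5 of 9 genes and lower in 0. Netrin receptors (3 of 3 measured), Robo receptors (2 of 3) and ephrins (4 of 8) were called only on the lower side. The fibroblast genes listed for reference, 7 of 7 detected in both libraries, summed to 4806 CPM in tdTomato-positive cells and 46562 CPM in tdTomato-negative cells. Most of the sum in positive cells was Fn1, at 4266 CPM, against 22972 CPM in negative cells. The 7 glial genes summed to 4547 CPM in positive and 23.2 CPM in negative cells. The part of these cell types in the differences was not tested.

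**Figure D2:**
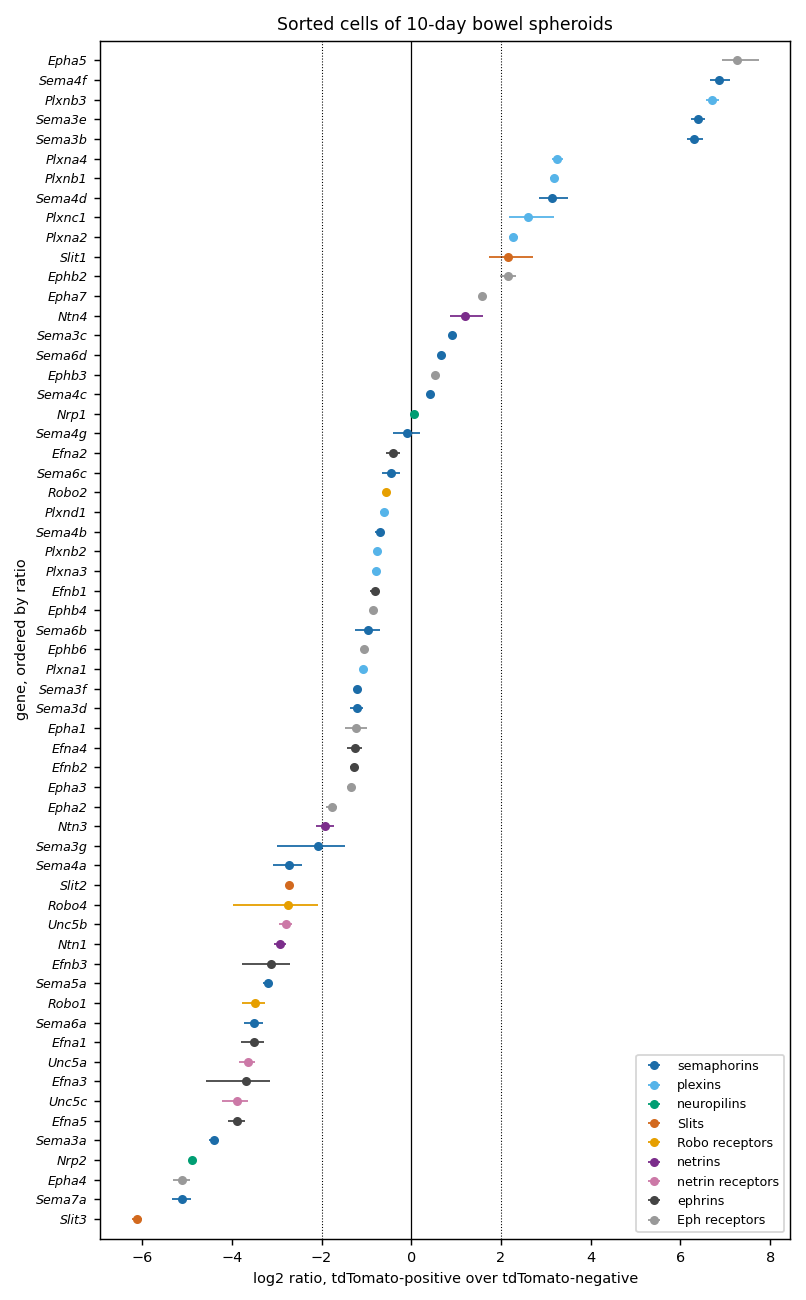
Log2 ratio of tdTomato-positive over tdTomato-negative spheroid cells for the 60 guidance genes measured, with 95% counting intervals as bars. Genes run from the highest ratio (Epha5, 7.27) at the top to the lowest (Slit3, -6.12) at the bottom, colours mark families, and dotted lines mark 4-fold, with 12 called genes on the right and 20 on the left.

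Semaphorins were among the genes with the largest differences in both directions. Sema4f (Entrez 20355; chromosome 6, 82911884 to 82939769, GRCm38.p6), a transmembrane semaphorin, had 208 CPM in adipose neurospheres, 130.1 in adipose primary cells, 195 in M2 neurospheres, 136 in M1 neurospheres, 375 in tdTomato-positive spheroid cells, 2.69 in tdTomato-negative spheroid cells and 7.64 in bowel primary cells. It was high in all cultured neural crest-derived cells and in adipose primary cells, and the log2 ratio of positive over negative spheroid cells was 6.86 (interval 6.66 to 7.10). Sema3e (Entrez 20349; chromosome 5, 14025276 to 14256689), which binds Plxnd1 without a neuropilin, had 294 CPM in adipose neurospheres, 69.9 in adipose primary cells, 355 in M2 neurospheres, 104 in M1 neurospheres, 582 in tdTomato-positive spheroid cells, 5.88 in tdTomato-negative spheroid cells and 33.4 in bowel primary cells. Its log2 ratio in the sort was 6.38 (6.24 to 6.54), whereas its receptor Plxnd1 had 30.3 CPM in positive and 39.2 CPM in negative cells and was not called (-0.61). Ligand and receptor thus did not differ alike between the sorted fractions. Sema3b had 397 CPM in positive and 4.21 CPM in negative cells (6.31, 6.14 to 6.50), and Sema4d, the ligand of Plxnb1, had 15.1 and 1.42 CPM (3.14, 2.86 to 3.49).

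On the lower side, Sema7a, a semaphorin anchored to the membrane by a lipid, had 2.97 CPM in positive and 87.4 CPM in negative cells, a log2 ratio of -5.10 (-5.34 to -4.91). Sema3a, which repels axons through Nrp1 and plexins of class A, had 12.8 CPM in positive and 228 CPM in negative cells (-4.40, -4.51 to -4.30). Both ligands lay mainly outside the neural crest-derived fraction of the spheroids. Sema6a (-3.50), Sema5a (-3.20), Sema4a (-2.72) and Sema3g (-2.09) were also called lower. The other 9 semaphorins measured, Sema3c and Sema6d among them, were called in neither direction.

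Among the receptors, Plxnb3 (Entrez 140571; chromosome X, 73756556 to 73772510), a receptor of Sema5a, had 180.2 CPM in adipose neurospheres, 66.9 in adipose primary cells, 516 in M2 neurospheres, 497 in M1 neurospheres, 736 in tdTomato-positive spheroid cells, 5.91 in tdTomato-negative spheroid cells and 16.0 in bowel primary cells. The log2 ratio of positive over negative cells was 6.71 (6.57 to 6.87). Plxnb1 had 219 CPM in positive and 20.6 CPM in negative cells (3.17, 3.09 to 3.25). Plxna4 (3.25), Plxnc1 (2.61) and Plxna2 (2.27) were called higher too, so that members of classes A, B and C were all represented. Plxnb2 was high in both, at 329 CPM in positive and 476 CPM in negative cells, and was not called. Of the neuropilins, Nrp2, the co-receptor of Sema3f, had 20.4 CPM in positive and 509 CPM in negative cells (-4.88, -4.96 to -4.80), while Nrp1 had 123 and 100.3 CPM (0.05). The neuropilin pair therefore differed in its distribution between the sorted fractions.

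Slits and Robo receptors were mostly lower in the neural crest-derived cells. Slit3 (Entrez 20564; chromosome 11, 35121456 to 35708507), a secreted ligand of Robo receptors, had 82.5 CPM in adipose neurospheres, 13.7 in adipose primary cells, 14.5 in M2 neurospheres, 19.4 in M1 neurospheres, 10.6 in tdTomato-positive spheroid cells, 627 in tdTomato-negative spheroid cells and 15.1 in bowel primary cells. Its log2 ratio of -6.12 (-6.23 to -6.01) was the lowest of the guidance genes in this comparison. Slit2 had 28.6 CPM in positive and 159.7 CPM in negative cells (-2.72). Slit1 went the other way at low levels, with 3.64 CPM in positive and 0.665 CPM in negative cells (2.16, 1.74 to 2.71). Robo1, a receptor known to mediate Slit repulsion, had 2.07 and 20.0 CPM (-3.49), and Robo2 had 44.9 and 55.9 CPM and was not called.

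Netrin signalling genes were lower in the neural crest-derived cells in each case that was called. Ntn1, which attracts axons through Dcc and repels them through Unc5 receptors, had 8.64 CPM in positive and 55.6 CPM in negative cells (-2.92, -3.06 to -2.80). The repellent receptors Unc5a, Unc5b and Unc5c had log2 ratios of -3.65, -2.79 and -3.89. Dcc had 0.634 CPM in positive and 0.0618 CPM in negative cells and was not measured here. Of the Eph receptors, Epha5 (Entrez 13839; chromosome 5, 84054761 to 84417818), which binds ephrins of class A, had 146 CPM in positive and 0.773 CPM in negative cells (7.27, 6.92 to 7.75). Epha4, which binds ephrins of both classes, had 3.59 and 105 CPM (-5.10, -5.31 to -4.93). These receptors of the same family thus marked opposite fractions, and the remaining called Eph receptor, Ephb2, was higher (2.14). The ephrins Efna5 (-3.89), Efna3 (-3.68), Efna1 (-3.51) and Efnb3 (-3.14) were called lower.

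Promoter sequences are shown for these genes because the sort separated cells with high and low Sox10, and Sox factors bind short motifs that read ACAAAG, or CTTTGT on the other strand. A second form of the motif reads ACAATG. On the other strand it is CATTGT. Both strands of the 250 bases before each annotated start were searched in RefSeq promoter sequences of GRCm38.p6, which held 59 of the 69 genes. Of all 32851 promoters, 16.5% held the first motif, 10.7% the second and 25.2% either. Among guidance genes higher in positive spheroid cells, 4 of 11 promoters (36.4%, 4 of 9 genes) held a match, and among those lower, 2 of 22 promoters (9.09%, 2 of 17 genes) did. Over all guidance promoters 12 of 75 (16%) held one. A match describes letters in this window and is not a binding site, and a part of Sox factors in these levels was not tested. Except for Sema4f, the stretches below lie inside the span of their gene, before an annotated start within it. The stretches of 30 bases around the matches follow, from 5′ to 3′ on the strand of the gene, with the matched letters in capitals; Sema4f, Plxnb3, Sema4d and Plxnc1 were higher and Sema4a and Sema3a lower.
Sema4f, chr6:82939770-82939799, minus strand: aagaaaccggtcctccattggttcCTTTGT
Plxnb3, chrX:73756884-73756913, plus strand: ggacagaggggaCATTGTtggggtggaggc
Plxnb3, chrX:73756929-73756958, plus strand: aggccactattgACAAAGctgccagctgtg
Plxnb3, chrX:73757049-73757078, plus strand: ctcccactcaggACAATGccccccacagcc
Sema4d, chr13:51748998-51749027, minus strand: caatcaggcccaCATTGTagaacagccctg
Plxnc1, chr10:94944953-94944982, minus strand: catcccactttcACAATGggaaagtgaaac
Sema4a, chr3:88458916-88458945, minus strand: agaggggcgggcCATTGTctggcgctgact
Sema3a, chr5:13396637-13396666, plus strand: agctcctgagttCTTTGTcaaaataagcag
Sema3a, chr5:13396754-13396783, plus strand: cagttgctaatagccttCATTGTggtacaa

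Whole windows of 250 bases are shown for a pair of ligands with like ratios in the sort, Sema4f with 1 match at its end and Sema3e with 0 matches.
Sema4f, chr6:82939770-82940019, minus strand: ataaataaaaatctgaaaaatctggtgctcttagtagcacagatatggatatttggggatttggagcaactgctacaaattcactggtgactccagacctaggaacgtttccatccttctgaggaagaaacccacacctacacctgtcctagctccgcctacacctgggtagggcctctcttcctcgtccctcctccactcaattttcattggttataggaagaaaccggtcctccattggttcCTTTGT
Sema3e, chr5:14025026-14025275, plus strand: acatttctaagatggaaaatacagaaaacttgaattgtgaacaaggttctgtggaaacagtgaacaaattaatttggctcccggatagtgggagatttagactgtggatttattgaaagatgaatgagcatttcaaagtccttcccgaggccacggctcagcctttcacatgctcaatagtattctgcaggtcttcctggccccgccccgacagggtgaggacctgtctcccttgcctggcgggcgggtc

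The primary cells of the 2 tissues were compared next. In adipose primary cells 6 of 62 guidance genes measured were higher and 12 lower than in bowel primary cells, or 29%, against 18.5% of all 15585 genes measured (7.09% higher and 11.4% lower). The higher genes were semaphorins and plexins, and the lower ones included Slits, Robo receptors, ephrins and Eph receptors. The median log2 ratio was 0.13 for the guidance genes and 0.09 for all genes. Myelin genes of Schwann cells summed to 4632 CPM in adipose and 814 CPM in bowel primary cells, with 6 and 5 of 6 genes at 1 CPM. The neuronal genes summed to 64.6 CPM in adipose and 1868 CPM in bowel primary cells, with 5 and 10 of 10 at 1 CPM and Elavl3 at 0 in adipose cells. The lymphocyte list summed to 1736 CPM in adipose and 16.1 CPM in bowel primary cells, most of it Ccr7 at 1473 CPM in adipose cells. The 7 glial genes summed to 3882 CPM in adipose and 1291 CPM in bowel primary cells. The part of these lists in the differences between the tissues was not tested.

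Plxnc1 (Entrez 54712; chromosome 10, 94790866 to 94945015), the receptor of Sema7a, had 0.812 CPM in adipose neurospheres, 122 in adipose primary cells, 6.40 in M2 neurospheres, 6.11 in M1 neurospheres, 4.52 in tdTomato-positive spheroid cells, 0.603 in tdTomato-negative spheroid cells and 5.44 in bowel primary cells. It stood out in adipose primary cells alone, with a log2 ratio over bowel primary cells of 4.45 (4.30 to 4.63). Sema4f followed at 4.06 (3.93 to 4.21), with 130.1 CPM in adipose and 7.64 CPM in bowel primary cells. Sema3g (2.96), Sema5b (2.81), Sema7a (2.46) and Plxnb3 (2.04) were higher as well, the first 3 at levels under 5 CPM in both libraries. With 66.9 CPM in adipose and 16.0 CPM in bowel primary cells, Plxnb3 lay close to the 4-fold limit.

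Among the lower genes, Slit2 had 1.17 CPM in adipose and 25.0 CPM in bowel primary cells (-4.40, -4.79 to -4.10), and Slit1 had 0.312 and 3.61 CPM (-3.42). The receptors Robo2, at 1.31 and 10.6 CPM (-3.01), and Robo1, at 0.312 and 2.51 CPM (-2.90), were lower with them. These ligands and receptors were thus scarcer together in the adipose library, whereas Slit3 had 13.7 and 15.1 CPM and Robo4 15.6 and 11.0 CPM and were not called. Epha5 had 1.52 CPM in adipose and 19.8 CPM in bowel primary cells (-3.70, -4.04 to -3.43). Epha8 had 0 reads in adipose cells, where 3 reads correspond to 0.0469 CPM, and 4.84 CPM in bowel cells, so that it was at least 105-fold lower. Epha6 (-4.73), Ephb1 (-3.90) and Epha4 (-2.34) completed the 5 Eph receptors that were lower of 13 measured. Efnb3 (-3.57), Efna5 (-2.90) and Sema3a (-2.15) were lower too.

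After culture the tissues were compared as adipose neurospheres over M2 neurospheres, which were grown by the same scheme. Of 60 guidance genes measured, 13 were higher and 14 lower in adipose neurospheres, or 45%, against 14% of all 13440 genes measured (5.33% higher and 8.71% lower). The median log2 ratio was -0.18 for the guidance genes and -0.01 for all genes. Neuronal genes summed to 723 CPM in adipose and 1116 CPM in M2 neurospheres, with 5 and 10 of 10 at 1 CPM. Most of the adipose sum came from Uchl1, at 502 CPM in adipose and 105 CPM in M2 neurospheres, and Tubb3, at 209 and 303 CPM. Elavl4 had 0.195 CPM in adipose and 125 CPM in M2 neurospheres, and Snap25 was at 0 in adipose neurospheres and at 6.34 CPM in M2 neurospheres. Their part in these differences was not tested.

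Sema3g (Entrez 218877; chromosome 14, 31217873 to 31230352), a secreted semaphorin that acts through Nrp2, had 30.7 CPM in adipose neurospheres, 4.59 in adipose primary cells, 0.0613 in M2 neurospheres, 0.385 in M1 neurospheres, 0.310 in tdTomato-positive spheroid cells, 1.21 in tdTomato-negative spheroid cells and 0.555 in bowel primary cells. Its log2 ratio between the neurospheres was 8.47 (7.73 to 10.97), and both adipose libraries were above all 5 bowel libraries. Nrp2 was higher in adipose neurospheres as well, at 138 CPM against 29.4 CPM in M2 neurospheres (2.35). Sema7a had 14.8 CPM in adipose and 0.766 CPM in M2 neurospheres (4.34), and Sema6b, a transmembrane semaphorin, had 35.9 and 2.73 CPM (3.82, 3.62 to 4.07). Ntn5, at 5.88 and 0.0919 CPM (5.69, 4.98 to 7.57), shares 23.4% of its exon bases with a neighbouring gene, Sec1, so its reads are uncertain. Epha4, Slit3, Efnb2, Plxnd1, Plxna2, Efna2, Epha7 and Unc5b were higher with log2 ratios between 2.11 and 2.66.

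Slit1 (Entrez 20562; chromosome 19, 41597824 to 41747275) had 0.162 CPM in adipose neurospheres, 0.312 in adipose primary cells, 16.7 in M2 neurospheres, 66.6 in M1 neurospheres, 3.64 in tdTomato-positive spheroid cells, 0.665 in tdTomato-negative spheroid cells and 3.61 in bowel primary cells. It was highest in the bowel neurospheres, and the log2 ratio of adipose over M2 neurospheres was -6.32 (-7.63 to -5.68). Ntn1 had 0.730 CPM in adipose and 25.6 CPM in M2 neurospheres (-4.95, -5.47 to -4.58). Sema4d had 0.438 and 16.7 CPM (-5.04), Sema3d, a secreted semaphorin, had 3.90 and 77.7 CPM (-4.19, -4.39 to -4.01), and Sema3a had 9.01 and 134 CPM (-3.77). These ligands were scarcer in adipose than in bowel M2 neurospheres, while Sema3g, Slit3 and Ntn5 of the same families were higher. Receptors called lower were Ephb1 (-3.08), Plxnc1 (-2.81), Dcc (-2.63), Epha3 (-2.57), Robo1 (-2.52), Plxna3 (-2.51), Unc5a (-2.15) and Robo2 (-2.11), and Slit2 was lower at -2.64.

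The bowel library chosen mattered for some of these. With M1 neurospheres in place of M2 neurospheres, 27 genes were called, of which 9 were higher and 18 lower, where 17.9% of all genes were called. Among the genes called at 10 CPM or more in the higher library, up to 10 in each direction, the calls of Plxna2 (1.36), Epha4 (1.12), Nrp2 (0.15), Sema3a (-0.70) and Slit2 (-1.24) were lost. With tdTomato-positive spheroid cells in that place, 22 were called, where 11.7% of all genes were. Plxna2 turned to -0.13, and Sema3a (-0.49), Slit2 (-1.38), Sema3d (-1.23), Efnb2 (1.60), Plxnd1 (1.16) and Efna2 (1.67) were no longer called. The calls of Sema3g, Sema7a, Sema6b, Slit1 and Ntn1 were kept with either library.

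Primary cells and neurospheres gave tissue differences from separate libraries, and the overlap of the 2 gene lists was counted. Sema3g and Sema7a were higher in adipose cells in both, each at under 5 CPM in the primary libraries. That is 33.3% of the 6 genes higher among primary cells and 15.4% of the 13 higher among neurospheres. Over all genes those shares were 7.87% and 12.2%. Slit1, Slit2, Robo1, Robo2, Sema3a and Ephb1 were lower in both, which is 50% of the 12 genes lower among primary cells and 42.9% of the 14 lower among neurospheres. Over all genes the shares were 22.2% and 33.6%. Plxnc1 and Epha4 changed sides: Plxnc1 was higher in adipose than bowel primary cells (4.45) and lower in adipose than M2 neurospheres (-2.81), and Epha4 was lower (-2.34) and then higher (2.66).

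**Figure D3:**
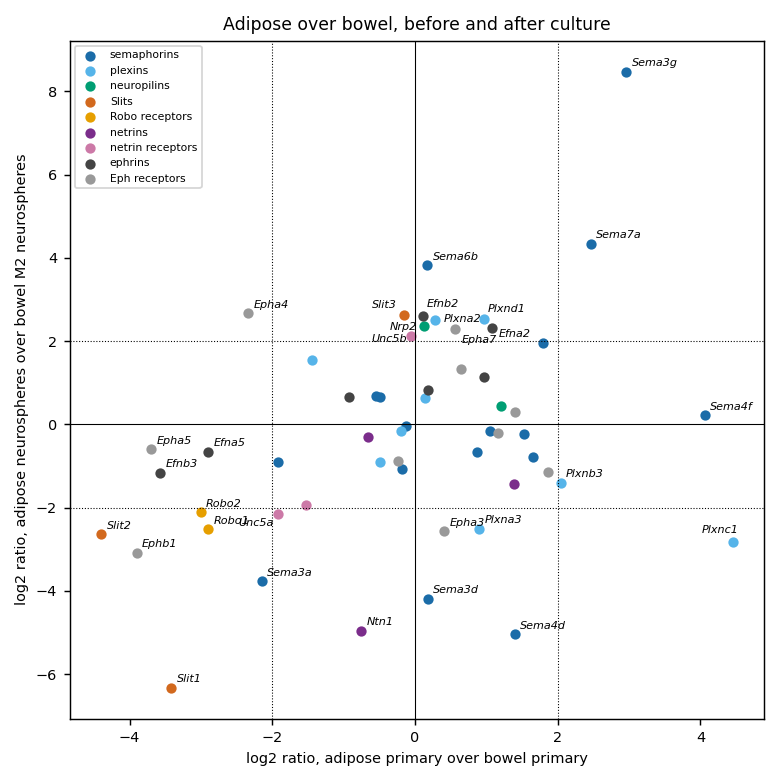
Log2 ratio of adipose over bowel primary cells (x axis) and of adipose over bowel M2 neurospheres (y axis) for the 56 guidance genes measured in both comparisons, 1 point per gene. Slit1 and Sema3a lie low on both axes, Sema3g high on both, and Plxnc1 and Epha4 in opposite corners.

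The effect of culture on bowel cells was read against the same bowel primary library in 3 comparisons, so those are not independent of one another. M1 neurospheres had 12 guidance genes higher and 4 lower of 64 measured, or 25%, against 22.9% of all genes (6.58% higher and 16.3% lower). M2 neurospheres had 11 higher and 9 lower of 61, or 32.8%, against 26.9% of all genes (5.89% and 21%). tdTomato-positive spheroid cells had 14 higher and 13 lower of 61, or 44.3%, against 27% (6.57% and 20.4%). Calls over all genes were mostly on the lower side in each comparison, while calls of guidance genes were more often on the higher side under the 4-fold rule. Under an 8-fold rule they were 5 higher and 2 lower in M1 neurospheres, 5 and 5 in M2 neurospheres and 6 and 7 in tdTomato-positive spheroid cells. In that order 7 of 64, 10 of 61 and 13 of 61 guidance genes were called, against 13.4%, 18.2% and 18.6% of all genes. The guidance share was thus below that of all genes in M1 and M2 neurospheres under the 8-fold rule. The median log2 ratios of the guidance genes were 0.62, 0.26 and 0.39 in M1 neurospheres, M2 neurospheres and tdTomato-positive spheroid cells, and those of all genes were -0.07, -0.07 and -0.03. The acinar and smooth muscle genes that were abundant in bowel primary cells summed to at most 3.95 and 82.5 CPM in these cultured libraries. The 7 glial genes summed to 1291 CPM in bowel primary cells. In M1 neurospheres, M2 neurospheres and tdTomato-positive spheroid cells they summed to 2525, 3721 and 4547 CPM. The part of these lists in the differences was not tested.

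Plxnb3, Plxnb1, Sema4f, Sema4c and Plxna3 were higher in each bowel culture. The cultures share the bowel primary library, and the share of all genes higher in each was not computed. Plxnb3 had log2 ratios over bowel primary cells of 4.49 in M1 neurospheres, 4.72 in M2 neurospheres and 5.35 in tdTomato-positive spheroid cells. Sema4f had 3.69, 4.38 and 5.44 in the same order, Plxnb1 had 2.26, 2.53 and 3.82, and Sema4c had 2.59, 2.35 and 3.47. Plxna3, a plexin of class A, was higher in each too (2.91, 2.27 and 2.45). Sema3e was higher in M2 neurospheres (355 CPM, 3.12) and tdTomato-positive spheroid cells (582 CPM, 3.95) than in bowel primary cells (33.4 CPM). In M1 neurospheres it had 104 CPM and was not called. Epha5 likewise had 121 CPM in M2 neurospheres (2.32) and 146 CPM in tdTomato-positive spheroid cells (2.71), against 8.83 CPM in M1 neurospheres and 19.8 CPM in bowel primary cells.

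Dcc, the attractive netrin receptor, had 15.4 CPM in M1 neurospheres, 1.04 CPM in M2 neurospheres and 0 reads in bowel primary cells. With the floor of 3 reads it was at least 215-fold higher in M1 neurospheres and at least 16.4-fold higher in M2 neurospheres. Slit1 (3.74) and Robo1 (2.75) were called higher in M1 neurospheres, and Sema3a was called higher in M2 neurospheres (134 CPM against 8.46 CPM in bowel primary cells; 3.69, 3.56 to 3.83). Sema3d (Entrez 108151; chromosome 5, 12383161 to 12588953) was higher in both kinds of neurosphere (2.13 each), with 77.7 CPM in M2, 88.1 CPM in M1 and 14.6 CPM in bowel primary cells.

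On the other side, 4 guidance genes were lower in every bowel culture. For all genes the share lower in every bowel culture was not computed, so this count has no background. Sema4a had 4.05 CPM in M1 neurospheres, 0.383 in M2 neurospheres, 1.42 in tdTomato-positive spheroid cells and 63.6 in bowel primary cells, with log2 ratios of -4.42, -7.53 and -5.62. Robo4, a Robo receptor known from endothelium, had 0 reads in M1 and M2 neurospheres, 0.186 CPM in tdTomato-positive spheroid cells and 11.0 CPM in bowel primary cells. It was at least 262-fold lower in M1 and at least 293-fold lower in M2 neurospheres. Efna1 (-2.85, -5.10 and -4.27) and Epha6, whose level in bowel primary cells was 2.88 CPM, were lower in each too. Endothelial genes summed to 23.0 CPM in M1 neurospheres, 24.0 CPM in M2 neurospheres, 8.43 CPM in tdTomato-positive spheroid cells and 170.5 CPM in bowel primary cells, where 7 of 7 were detected at 1 CPM. Most of the sums in M1 and M2 neurospheres came from Kdr, at 19.5 CPM in M1 neurospheres, 21.5 CPM in M2 neurospheres and 18.6 CPM in bowel primary cells. Cdh5 was at 0 in M1 and M2 neurospheres and at 3.36 CPM in bowel primary cells. The macrophage genes summed to 137 CPM or less in the cultures and 1578 CPM in bowel primary cells. The part of these cells in the levels of Robo4, Sema4a and Efna1 was not tested.

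Adipose cells were compared in the same way, as adipose neurospheres over adipose primary cells. Here 17 guidance genes were higher and 10 lower of 60 measured, or 45%, against 26.5% of all 14773 genes (5.71% higher and 20.8% lower). The median log2 ratio was 0.56 for the guidance genes and -0.01 for all genes. Epha5 had 73.3 CPM in adipose neurospheres and 1.52 CPM in adipose primary cells (5.42, 5.16 to 5.75). Plxna4 (3.33), Sema6b (3.32), Slit2 (3.04), Efnb2 (2.80), Epha4 (2.76) and Unc5b (2.62) followed, so that most families had a gene on the higher side. Sema4c had 268 CPM in adipose neurospheres and 42.6 CPM in adipose primary cells (2.51, 2.45 to 2.57). Plxna2, Ntn5, Sema3g, Efna4, Slit3, Plxnb1, Sema3a, Robo1 and Plxnd1 had log2 ratios between 2.05 and 2.69.

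Several genes that were lower had larger ratios than any that was higher. Plxnc1 had 0.812 CPM in adipose neurospheres and 122 CPM in adipose primary cells (-7.32, -7.80 to -6.97), Sema4a had 0.276 and 108 CPM (-8.59, -9.53 to -8.07), and Sema4d had 0.438 and 43.9 CPM (-6.69). Robo4 had 0 reads in adipose neurospheres and 15.6 CPM in adipose primary cells, at least 354-fold lower. The netrins Ntn4, a ligand of basement membranes, at 1.56 and 55.0 CPM (-5.26), and Ntn1, at 0.730 and 21.7 CPM (-4.98), were lower together. Sema3b had 129 CPM in adipose neurospheres and 735 CPM in adipose primary cells (-2.66, -2.69 to -2.62), and Efna1 (-3.52), Sema5b (-2.85) and Sema3d (-2.24) were lower as well. Lymphocyte genes summed to 0.454 CPM in adipose neurospheres and 1736 CPM in adipose primary cells, with 0 of 7 at 1 CPM in neurospheres and 7 of 7 in primary cells. The macrophage genes summed to 16.7 CPM in adipose neurospheres and 563 CPM in adipose primary cells, endothelial genes to 1.67 and 172 CPM, and fibroblast genes to 1554 and 12052 CPM. The part of these cells in the levels of Plxnc1, Sema4a, Sema4d and Robo4 was not tested.

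Adipose culture and bowel M2 culture share no library, and their lists were set side by side. Epha5, Plxnb1, Sema4c, Efna4 and Sema3a were higher in both, 29.4% of the 17 genes higher in adipose culture and 45.5% of the 11 higher in bowel M2 culture, where the shares over all genes were 24% and 22.6%. Sema4a, Robo4, Efna1 and Ntn4 were lower in both, 40% of 10 and 44.4% of 9, where the shares over all genes were 54.1% and 52%. Epha4 and Sema3d went opposite ways. Epha4 was higher in adipose neurospheres (25.4 CPM) than in adipose primary cells (3.36 CPM) and lower in M2 neurospheres (4.32 CPM) than in bowel primary cells (16.9 CPM). Scaling by total counts took the bowel change of Epha4 under the 4-fold limit (-1.96).

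**Figure D4:**
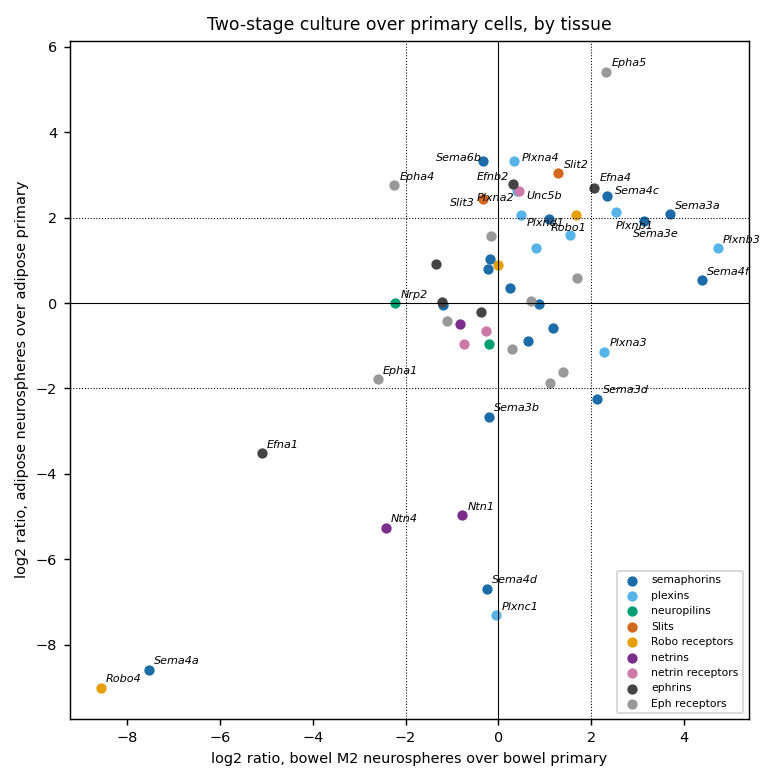
Log2 ratio of M2 neurospheres over bowel primary cells (x axis) and of adipose neurospheres over adipose primary cells (y axis) for the 55 guidance genes measured in both comparisons, 1 point per gene. Sema4a and Robo4 lie lowest on both axes, while Plxnb3 and Sema4f lie at 4.72 and 4.38 on the x axis and at 1.28 and 0.53 on the y axis.

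Plxnb3 and Sema4f differed in level between the primary libraries. Sema4f had 208 CPM in adipose neurospheres and 130.1 CPM in adipose primary cells and was not called there. Bowel primary cells had 7.64 CPM of it. For Plxnb3 the values were 180.2 CPM in adipose neurospheres and 66.9 CPM in adipose primary cells, also not called. Glial RNA differed too, with Sox10 at 377 CPM in adipose and 98.0 CPM in bowel primary cells. The 7 glial genes summed to 3882 CPM in adipose and 1291 CPM in bowel primary cells. The part of glial RNA in the levels of Plxnb3 and Sema4f was not tested. The bars for selected genes show the levels of Plxnb3 and Sema4f in every library.

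**Figure D5:**
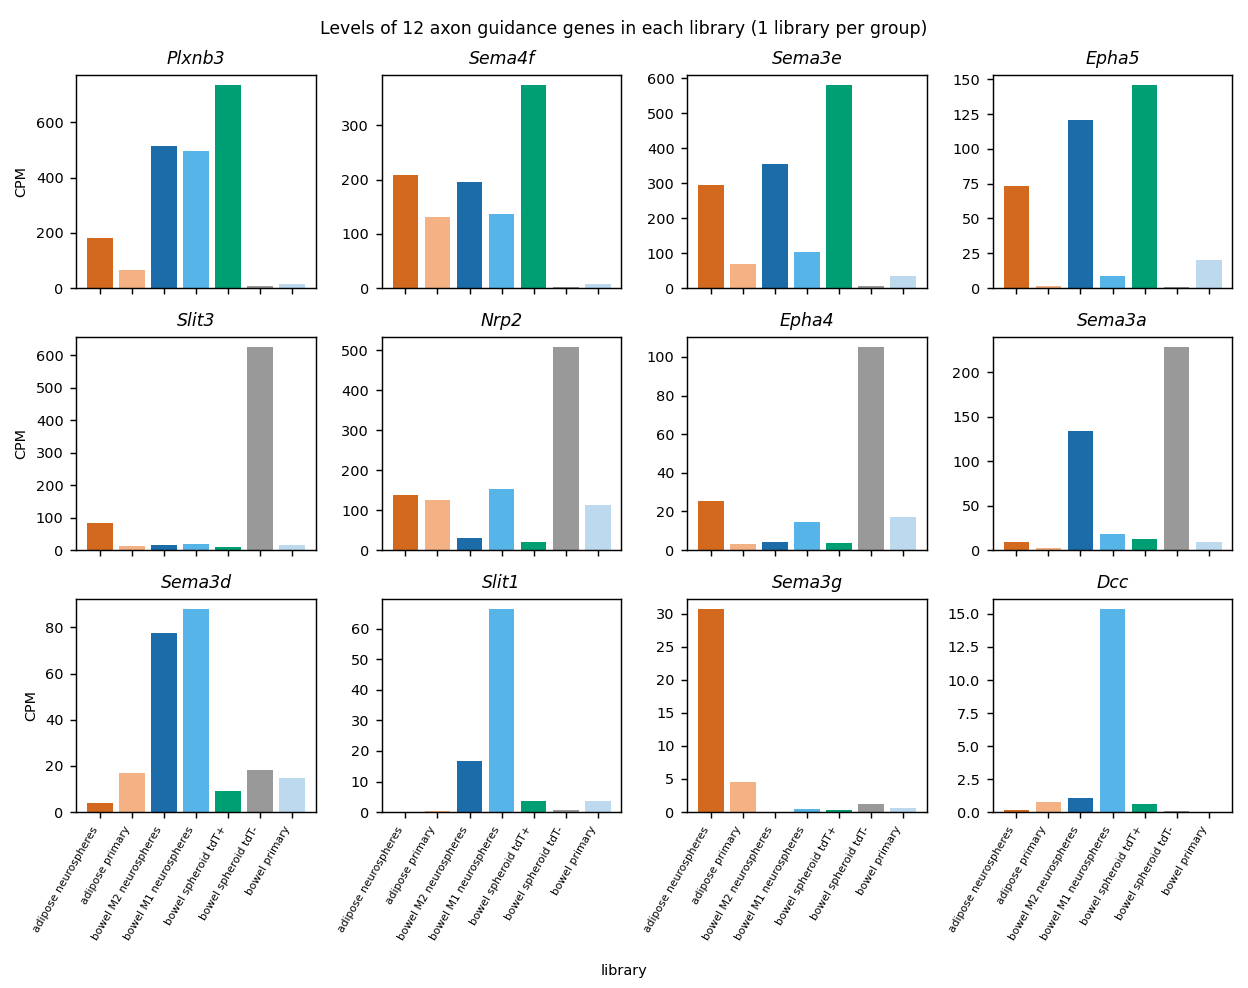
CPM of selected guidance genes in each of the 7 libraries (1 bar per library, linear axes from 0, each panel with its own scale). Plxnb3, Sema4f and Sema3e are tallest in tdTomato-positive spheroid cells, Slit3, Nrp2 and Epha4 in tdTomato-negative spheroid cells, and Sema3g in adipose neurospheres.

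The 2 ways of making bowel neurospheres, and the second culture stage of M2, were compared last. Both use the M2 library and so are not independent of each other. M2 neurospheres had 2 guidance genes higher and 7 lower than M1 neurospheres of 62 measured, or 14.5%, against 8.57% of all genes (1.2% higher and 7.37% lower). Epha5 had 121 CPM in M2 and 8.83 CPM in M1 neurospheres (3.94, 3.81 to 4.09), and Sema3a had 134 and 18.0 CPM (3.07, 2.97 to 3.17). On the lower side were Dcc with 1.04 CPM in M2 and 15.4 CPM in M1 neurospheres (-3.67, -4.09 to -3.35), Epha8 with 0.352 and 4.80 CPM (-3.48) and Nrp2 with 29.4 and 153 CPM (-2.20). Sema4a (-3.12), Sema7a (-2.30), Efna1 (-2.25) and Sema5b (-2.13) were lower at levels under 7 CPM. The fibroblast genes summed to 751 CPM in M2 and 1891 CPM in M1 neurospheres, and the neuronal genes to 1116 and 1412 CPM; their part was not tested.

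Against the tdTomato-positive spheroid cells from which they were grown, M2 neurospheres had 5 guidance genes higher and 3 lower of 59 measured, or 13.6%, against 6.94% of all genes (3.07% higher and 3.86% lower). Secreted ligands were prominent among the higher genes: Sema3a had 134 CPM in M2 neurospheres and 12.8 CPM in tdTomato-positive spheroid cells (3.27, 3.17 to 3.38), Sema3d had 77.7 and 9.21 CPM (2.96, 2.84 to 3.09), and Slit1 had 16.7 and 3.64 CPM (2.08). Ephb1, a receptor for ephrins of class B, had 3.23 and 0.0929 CPM (4.62, 3.86 to 6.47), and Robo1 had 9.86 and 2.07 CPM (2.12). Plxna2 had 15.5 CPM in M2 neurospheres and 88.4 CPM in tdTomato-positive spheroid cells (-2.62, -2.72 to -2.53). Epha1 (-2.22) and Sema7a (-2.02) were lower at levels under 4 CPM.

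The genes called in no comparison were Sema3c, Sema3f, Sema4b, Sema6c, Plxna1, Nrp1, Efnb1, Epha2, Ephb4 and Ephb6, with Ntn3 and Unc5d at low levels and Robo3 and Epha10 under 1 CPM. Plxna1, a partner of neuropilins, had between 19.7 and 149.9 CPM over the 7 libraries, and Ephb4, the receptor of Efnb2, between 21.3 and 81.9 CPM.

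A list of 51 further guidance genes, covering other receptors, adhesion molecules and intracellular effectors, was read by the same rule. In the spheroid sort 9 were higher and 12 lower of 48 measured, where 6.64% of all genes measured were higher and 12.5% lower. L1cam, an adhesion molecule that is part of receptor complexes with neuropilins, had 1109 CPM in tdTomato-positive and 6.14 CPM in tdTomato-negative cells (7.25, 7.11 to 7.40), and its relative Nrcam had 589 and 6.28 CPM (6.30). Neo1, a receptor related to Dcc, had 57.3 and 279.7 CPM (-2.53), and Flrt2, a ligand of Unc5 receptors, had 3.20 and 141 CPM (-5.68), while its relative Flrt3 had 239 and 7.07 CPM (4.83). The relatives Flrt2 and Flrt3 thus lay in opposite fractions.

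Between primary cells 1 of 50 listed genes was higher in adipose cells and 8 were lower, a share near the 18.5% of all genes called. Crmp1, which carries semaphorin signals within axons, had 2.16 CPM in adipose and 93.2 CPM in bowel primary cells (-5.43). Between neurospheres 5 of 48 were higher and 10 lower, where 14% of all genes were called. Ngef, an exchange factor that acts downstream of Epha4, had 327 CPM in adipose and 1.47 CPM in M2 neurospheres (7.89, 7.63 to 8.22). Dpysl5, of the same family as Crmp1, had 1.06 and 96.3 CPM (-6.35). In culture 5 listed genes were higher and 4 lower of 51 in M1 neurospheres (22.9% of all genes called), and 6 and 8 of 51 in M2 neurospheres (26.9%). The counts were 7 and 11 of 51 in tdTomato-positive spheroid cells (27%) and 5 and 8 of 47 in adipose neurospheres (26.5%). M2 over M1 neurospheres gave 0 and 2 of 48 (8.57%), and M2 neurospheres over tdTomato-positive spheroid cells gave 0 and 0 of 47 (6.94%).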

How the data were processed

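Per the labels' protocols, RNA of about 50000 pooled cells per group was copied and amplified with SMART-Seq v4, and Nextera XT libraries were sequenced. The values deposited by the authors are CPM per Entrez gene, 1 column per library. The submitters' processing notes name bcl2fastq 2.17, HISAT, featureCounts and mm10; their settings, annotation and strand use were not given in the sources used here, and genes that overlap are therefore uncertain. The deposited CPM were turned back into whole reads, with 100% of values whole within 0.05 read. The reads carry no molecular identifiers, so amplified copies of 1 molecule count separately.

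With 1 library per group no count test could be run on these reads. Log2 ratios were computed from reads scaled by TMM (edgeR 4.0.16, R 4.3.3; 16461 genes) with a prior count of 2, which understates ratios of low genes. Intervals are exact conditional binomial intervals at 95%. CPM printed beside genes are plain CPM. For genes with 0 reads, a floor of 3 reads per library (0.0459 to 0.0578 CPM) gives the bound.

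Symbols and coordinates came from RefSeq GRCm38.p6 by Entrez identifier, with 25275 of 27179 matched, and promoters from the matching RefSeq table. Genes called at 10 CPM or more in the higher library, up to 10 per direction and comparison, were recomputed under the alternatives. Other called genes, such as Epha8 and Ephb1, are given with a ratio that was not among the 121 recomputed. The genes, the lists and the rules were chosen with earlier results of these data known. The steps were tested on simulated reads. Alternatives were scaling by total counts or DESeq2 1.42.0 size factors, other filters, prior counts and fold rules, and other bowel libraries. Plots were made with matplotlib 3.10.9 in Python 3.11.15, with numpy 2.4.6, pandas 2.3.3 and scipy 1.17.1.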

Additional observations from a re-analysis of the deposited data

Results flagged for a closer look

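For 3 guidance genes, a pair of comparisons that share no library gave calls in opposite directions. With 1 library per group, none of these differences between ratios was tested. Such opposite calls were also made over all genes: 7.69% of those lower between neurospheres were higher between primary cells (1 of 14 guidance genes, 7.14%), and 6.14% of those lower between primary cells were higher between neurospheres (1 of 12, 8.33%). Of genes higher in adipose culture, 11.6% were lower in bowel M2 culture (1 of 17, 5.88%), and of those lower in adipose culture, 2.05% were higher in bowel M2 culture (1 of 10, 10%). Plxnc1, the receptor of Sema7a, was higher in adipose than bowel primary cells (122 and 5.44 CPM) and lower in adipose than bowel M2 neurospheres (0.812 and 6.40 CPM), so that its log2 ratios of 4.45 and -2.81 differ by 7.27. Epha4 was lower in adipose than bowel primary cells (3.36 and 16.9 CPM) and higher in adipose than bowel M2 neurospheres (25.4 and 4.32 CPM), a difference of -5.003 between -2.34 and 2.66. Read by culture from the same 4 libraries, its log2 ratio was 2.76 in adipose cells and -2.24 in bowel cells, a difference of 5.003. Sema3d was lower in adipose neurospheres than in adipose primary cells (3.90 and 16.7 CPM) and higher in bowel M2 neurospheres than in bowel primary cells (77.7 and 14.6 CPM), and its log2 ratios of -2.24 and 2.13 differ by -4.36.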

How the results depend on the processing

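Of 885 recomputed ratios of named genes, 818 kept their direction and call, 66 lost the call and 1 reversed; the cause of these changes was not tested. DESeq2 size factors left all 121 named ratios called in the same direction. No filter, a prior count of 0.5, the 2-fold rule and the 5 CPM filter did so by construction. The named genes had been called at 4-fold with 10 CPM or more, so these settings could not end a call. Their ratios are counted among the 818. Scaling by total counts took Epha4 (-1.96) and Nrp2 (-1.94) in bowel M2 culture under the limit; it moved the median of all genes from -0.07 to 0.38 in bowel M1 culture, from -0.07 to 0.22 in bowel M2 culture and from 0.01 to 0.25 in the spheroid sort. By construction a stricter rule calls fewer genes, and the 8-fold rule ended 53 of 121 calls. With M2 replaced by tdTomato-positive spheroid cells, Plxna2 reversed to -0.13 between neurospheres (main value 2.50).

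Counts of guidance genes called moved as follows. With a filter at 5 CPM, 9 were called between primary tissues (18 at 1 CPM), 5 for M2 over M1 neurospheres (9) and 5 for the second stage (8). Of all genes, 15%, 5.24% and 4.6% were called with that filter. Under the 2-fold rule, 34 were called between primary tissues, 32 in M1 culture (16 under the 4-fold rule), 34 in M2 culture (20), 42 in tdTomato-positive spheroid cells (27), 41 in adipose culture (27), 24 for M2 over M1 and 28 for the second stage. Under the 8-fold rule these counts were 10, 7, 10, 13, 11, 5 and 2, and 10 were called between neurospheres (27). The balance of higher and lower calls turned under the 8-fold rule in adipose culture (4 and 7, from 17 and 10) and in tdTomato-positive spheroid cells (6 and 7, from 14 and 13). Under the 2-fold rule it was 17 and 17 between primary tissues (6 and 12) and 11 and 17 in the second stage (5 and 3). In the order of the counts above, the 2-fold rule called 35.9%, 46.1%, 48.9%, 46.8%, 46.8%, 23% and 19.7% of all genes. The 8-fold rule called 11.8%, 13.4%, 18.2%, 18.6%, 19%, 4.2% and 2.81% of all genes in that order, and 8.12% between neurospheres. The guidance genes measured numbered 62, 64, 61, 61, 60, 62 and 59, and 60 between neurospheres. Under the 8-fold rule their share called was thus no higher than that of all genes in M1, M2 and adipose culture. No paired analysis was possible because each group has 1 library, and leaving out a replicate was not possible either. Depth limits genes near 1 CPM.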
